A study of Mus musculus with 4 samples.

Results

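The cytosolic heat shock proteins were followed across 4 cultures of mouse melan-a melanocytes, an immortal line of skin pigment cells, each measured on 1 Affymetrix expression array. The set was chosen by name and holds 10 genes, of which 9 had at least 1 probe set naming that gene alone in the platform annotation, out of 18193 such genes on the array. A probe set is a group of short probes that together read 1 transcript, and the 9 genes had 25 of them. No probe set was named for Hsp90ab1, so its level is not analysed here. The arrays were Hmhi-MYC-TA with EGF, Hmhi-Miz1 kd (source label pS-Miz1) with EGF, Hmhi with EGF, and Hmhi starved with no EGF named. All 4 cultures carried Hmhi, were grown before with 200 nM TPA and 12 nM cholera toxin, and spent 14 days in DMEM with 10% dialyzed serum, to which 100 ng/ml EGF (epidermal growth factor) was added in 3. The labels spell out none of Hmhi, pS-Miz1 and MYC-TA, and do not say whether a line was 1 clone.

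Heat shock proteins are chaperones, which hold or refold other proteins. The small heat shock proteins (Hspb1, Hspb8, Cryab) bind unfolding proteins without using ATP, and Hspb8 works with the co-chaperone Bag3 in sending aggregated proteins to autophagy. The HSP70 proteins (the stress-inducible Hspa1a and Hspa1b, and the constitutive Hspa8) fold clients in cycles of ATP hydrolysis driven by J-domain partners such as Dnajb1 and reset by the exchange factor Hsph1, while Hsp90aa1 and Hsp90ab1 mature kinases and receptors. The transcription factor HSF1 drives many of these genes through heat shock elements, repeats of the letters GAA in alternating orientation. No probe set was named for Hsf1 in the annotation.

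Only the small heat shock proteins Hspb8 and Cryab differed by 2-fold or more between any pair of arrays on the brightest probe set of the gene, and they differed in unlike ways. Both read lower in Hmhi cells with EGF than in starved Hmhi cells. In MYC-TA cells Hspb8 read lower still and Cryab read higher than in Hmhi cells with EGF. In the array labelled Miz1 kd Hspb8 read near its starved level while Cryab was at its lowest. The choice of probe set bears on this. For Hmhi EGF against starved, Hsp90aa1 also passed 2-fold on dimmer sets, at -1.055 and -1.451. There the Hspb8 set 1417014_at fell short of 2-fold, at -0.861. The Hspb8 set 1456434_x_at did not put MYC-TA below Hmhi EGF. With 1 array per condition there is no replicate error, no test was possible and no p-value is given, so each difference below compares 2 arrays. In bulk RNA, fewer cells of a type and less RNA per cell cannot be told apart.

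Zbtb17, which encodes Miz-1, read 9.08 on its brighter probe set in the array labelled Miz1 kd, against 8.72 in Hmhi EGF, so the transcript does not bear out that label and every direction for it belongs to the array as labelled. The set named for Myc read 9.78 in MYC-TA EGF, its lowest level, against 10.60 in Hmhi EGF. The labels do not say which transcript MYC-TA stands for or whether this set would read it, so MYC-TA too is given as labelled. Of 10 melanocyte markers, 8 or 9 read at or above the array median in each array; Tyr was below it in all 4 arrays and Kit in both Hmhi starved and the one labelled Miz1 kd. The same was true of 3 or 4 of 9 fibroblast markers, 2 of 7 keratinocyte, 1 or 2 of 8 muscle and 1 or 2 of 6 macrophage markers. As a measure of RNA integrity, the 3' control set of Gapdh minus its 5' set ranged from -0.40 to -0.22 on the log2 scale, and that of beta-actin from 0.66 to 0.87. The 3 control sets of 18S rRNA read 12.43 to 13.40 in MYC-TA EGF, 12.50 to 12.94 in the array labelled Miz1 kd, 12.81 to 13.57 in Hmhi EGF and 11.98 to 12.90 in Hmhi starved. Each was lower in Hmhi starved than in Hmhi EGF, and its part in the differences between those arrays was not tested.

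Promoter sequences are shown for 3 members to set a member that moved beside members that changed little: Hspb8 spanned the widest range of levels over the 4 arrays, while Hspb1 and Hspa1b spanned under 0.5 log2 units, as did Hspa8 and Hsph1. Each runs 5′ to 3′ and covers the 250 bases before the RefSeq start in GRCm38.p6. Capitals mark paired units of a heat shock element, GAANNTTC or TTCNNGAA, each of which reads the same on both strands.
Hspb8, chr5:116422865-116423114, minus strand: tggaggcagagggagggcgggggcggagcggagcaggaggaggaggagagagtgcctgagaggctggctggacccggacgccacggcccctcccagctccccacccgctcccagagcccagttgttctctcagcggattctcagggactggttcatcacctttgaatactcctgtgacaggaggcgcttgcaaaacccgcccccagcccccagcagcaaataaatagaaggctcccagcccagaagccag
Hspb1, chr5:135887669-135887918, plus strand: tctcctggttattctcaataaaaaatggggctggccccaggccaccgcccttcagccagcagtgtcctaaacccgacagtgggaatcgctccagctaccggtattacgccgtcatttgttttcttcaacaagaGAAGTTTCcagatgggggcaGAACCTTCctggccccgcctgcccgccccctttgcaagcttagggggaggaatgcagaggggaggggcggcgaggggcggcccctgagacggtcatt
Hspa1b, chr17:34959239-34959488, minus strand: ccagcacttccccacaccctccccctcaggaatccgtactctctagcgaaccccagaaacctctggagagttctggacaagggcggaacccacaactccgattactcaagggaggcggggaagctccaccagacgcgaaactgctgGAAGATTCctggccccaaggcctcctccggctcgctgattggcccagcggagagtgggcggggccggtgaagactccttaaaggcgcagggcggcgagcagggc
The Hspb8 window held 0 such pairs. The Hspb1 window held 2, at 110 to 117 and 90 to 97 bases upstream of the start, and the Hspa1b window held 1, at 97 to 104 bases upstream. Of the 6 members with a promoter in the RefSeq table, 4 had a pair, the others being Hspa1a and Hsph1, and Dnajb1 had none. The windows of Hsph1, and the second window of Dnajb1, overlap the annotated transcript of that gene. Cryab, which also moved, had no promoter in that table, nor had Hspa8 or Hsp90aa1. Whether a pair goes with the changes in level was not tested. At least 1 of the 2 motifs was found in 12.8% of all 32851 promoter windows of that length, GAANNTTC in 6.69% and TTCNNGAA in 7.17%; the motifs can overlap each other. The windows of Hspa1a and Hspa1b were identical at 247 of 250 positions. A match describes these letters and is not a measured binding site.

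Hspb8 lies at chr5:116408491-116422864 and was read by 3 probe sets. All levels given are taken as log2 signals, on a scale where the median of every array was 6.66. The brightest set, 1417013_at, read 5.78 in MYC-TA EGF, 9.34 in the array labelled Miz1 kd, 8.13 in Hmhi EGF and 9.66 in Hmhi starved. Hmhi starved and the array labelled Miz1 kd stood high, Hmhi EGF between, and MYC-TA below the array median, where background limits how low a level can read. The set 1417014_at read 6.81, 8.41, 7.59 and 8.45 in the same order of arrays. Its order of arrays was that of the brightest set, over a narrower range. The remaining set, 1456434_x_at, read 7.79, 8.46, 7.68 and 8.86. On it MYC-TA was not below Hmhi EGF but level with it. An _x_at set holds probes that can also pair with other transcripts.

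The melanocyte markers were set beside Hspb8. The log2 of their summed signal was 15.33 in MYC-TA EGF, 15.86 in the array labelled Miz1 kd, 15.73 in Hmhi EGF and 15.98 in Hmhi starved, which is the order of arrays of Hspb8 on 1417013_at and 1417014_at, over a narrower range. Such a sum is weighted to the brightest markers. The mean log2 level of the 10 markers took another order, at 9.98, 10.17, 10.51 and 10.13 in the same order of arrays. Marker by marker, only Tyrp1 and Mitf took the order of Hspb8. Slc45a2, a transporter of the pigment organelle, read 6.97, 9.70, 9.67 and 8.05 in that order of arrays, and Dct, an enzyme of melanin synthesis, read 11.08, 9.19, 11.26 and 9.79. Pmel was higher by 1.51 in Hmhi EGF against starved, and Tyrp1 was at -1.02. Against starved Hmhi, Mlana was at -1.46 in MYC-TA and -1.09 in the array labelled Miz1 kd, and the melanocyte regulator Mitf at -1.16 in MYC-TA. Kit, the receptor of stem cell factor, was higher in MYC-TA by 1.41 against Hmhi starved and by 1.15 against the array labelled Miz1 kd, in both of which it read below the median. The part of these markers in the Hspb8 levels was not tested.

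Cryab, which encodes alphaB-crystallin, lies at chr9:50745951-50756636. Its brightest set, 1434369_a_at, read 12.58 in MYC-TA EGF, 11.35 in the array labelled Miz1 kd, 11.77 in Hmhi EGF and 13.92 in Hmhi starved. The set 1416455_a_at read 11.44, 10.11, 10.62 and 13.25 in the same order. Both sets put Hmhi starved highest, then MYC-TA, then Hmhi EGF and then the array labelled Miz1 kd. The other set stayed between 5.23 and 5.36, below the array median in every array, where background limits what it shows. The log2 of the summed signal of the 9 fibroblast markers was 12.13, 11.82, 11.63 and 12.24 in that order of arrays, and that of the 8 muscle markers 9.43, 9.35, 9.30 and 9.19. The macrophage sum, over 6 markers, was 9.08, 9.02, 8.97 and 9.80. The fibroblast and macrophage sums were thus also highest in Hmhi starved and next in MYC-TA, and their part in the Cryab levels was not tested. Within those lists, the collagen Col3a1 read 9.69, 6.25, 7.21 and 6.59 in that order of arrays, and the proteoglycan Dcn 11.56, 9.45, 10.35 and 11.50. Other fibroblast markers differed from these. Pdgfra read 7.93, 8.24, 8.21 and 7.40, lowest in Hmhi starved, and Pdgfrb 6.91, 11.16, 10.18 and 10.45, lowest in MYC-TA. Col1a2 passed the median in Hmhi starved alone, and Col1a1, Lum, Thy1 and Fap in no array. The fibroblast sum is weighted to its brightest markers, Dcn and Pdgfrb. Of the macrophage genes, Csf1r, a growth factor receptor, read 6.72 to 6.87 in the EGF arrays and 9.41 in Hmhi starved, while Cd68 read 8.05 to 8.28 in the EGF arrays and 6.55 in Hmhi starved. Ptprc, Adgre1, Itgam and Cd14 were below the median in every array. Of the markers of muscle, a tissue rich in Cryab and Hspb8, Des read 7.24 to 7.94, above the median in all 4 arrays and lowest in Hmhi starved. Actn2 read 6.37 to 6.71, above the median in 2 arrays, and Myog, Myod1, Ckm, Myh3, Tnnt2 and Ttn were below it in all 4.

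Hspb1 changed little: its brighter set read 7.26 in MYC-TA EGF, 7.18 in the array labelled Miz1 kd, 7.09 in Hmhi EGF and 6.96 in Hmhi starved. Its dimmer set stayed between 6.20 and 6.44, below the median. The whole span of the brighter set, 0.30 log2 units, was far under those of Hspb8 at 3.88 and Cryab at 2.57.

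**Figure D1:**
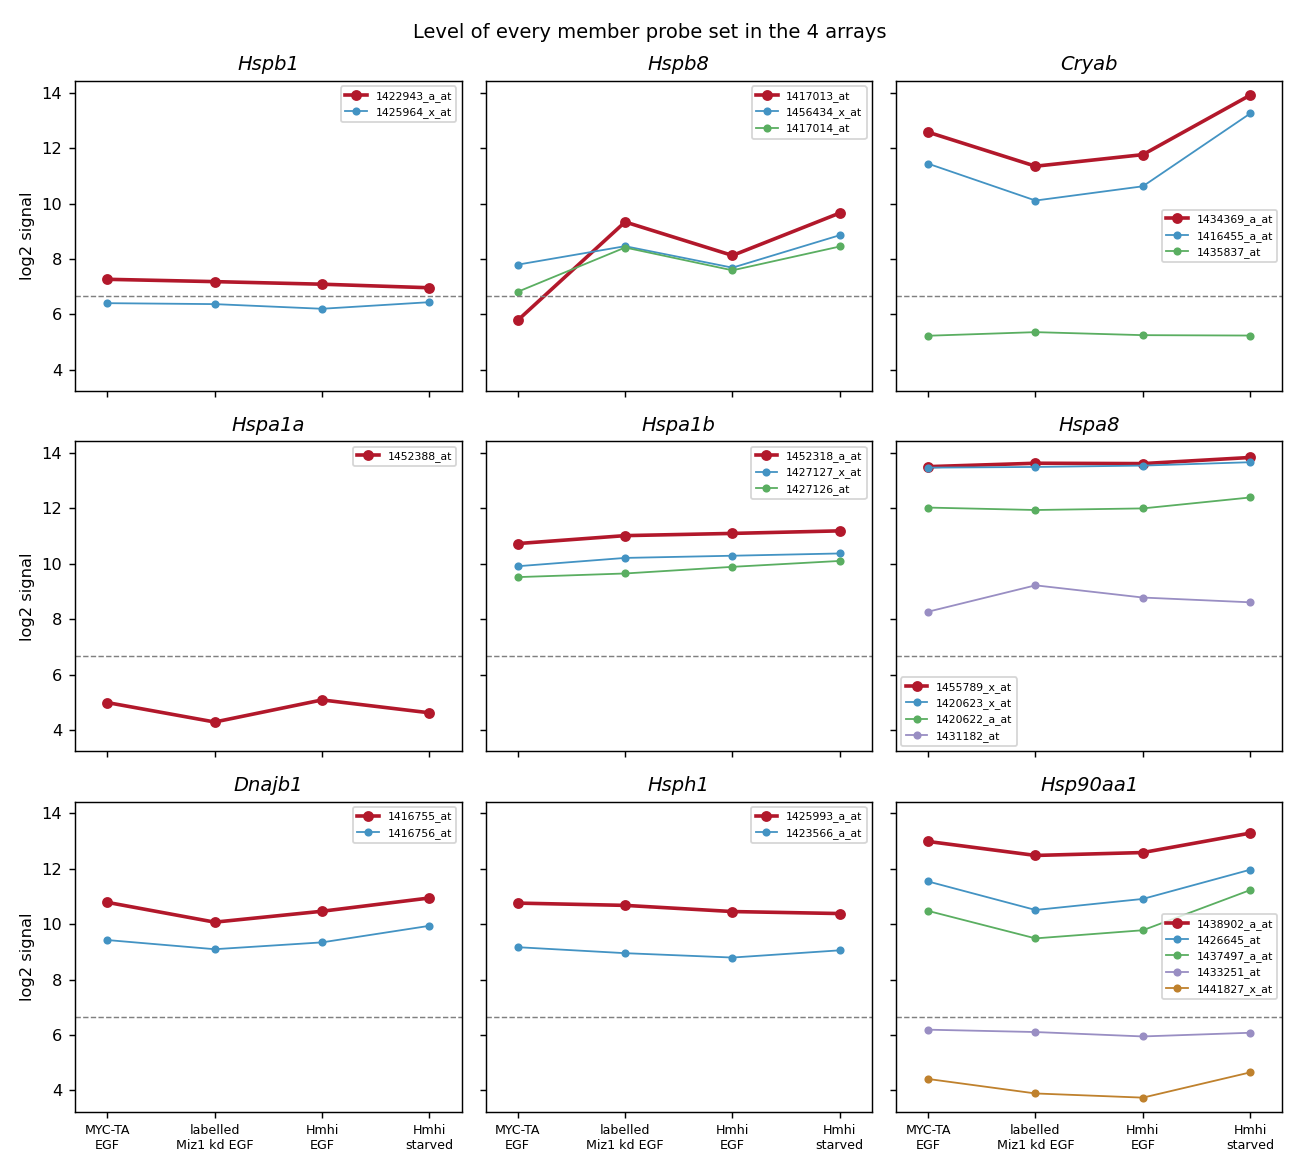
Log2 signal (vertical axis) of each of the 25 probe sets of the 9 measured genes in the 4 arrays (horizontal axis), 1 array per condition. The thick red line is the gene's brightest probe set, thinner lines are its other sets, and the dashed line is the array median of 6.66. Hspb8 and Cryab span the widest ranges, and the Hspa1a set lies below the median throughout.

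Among the HSP70 proteins, the inducible pair could not be read apart. The genes lie at chr17:34969359-34972156 (Hspa1a) and chr17:34956429-34959238 (Hspa1b) and encode nearly the same protein, so a set named for 1 may also read the other. The 1 set named for Hspa1a read 4.99 in MYC-TA EGF, 4.29 in the array labelled Miz1 kd, 5.09 in Hmhi EGF and 4.62 in Hmhi starved, all below the array median, and it entered no comparison. The brightest of 3 sets named for Hspa1b read 10.73, 11.02, 11.10 and 11.19 in that order. MYC-TA was lowest on all 3 Hspa1b sets, although the whole span of the brightest was under 0.5 log2 units. Hspa8, the constitutive HSP70, read 13.51, 13.63, 13.62 and 13.84 on its brightest set, so that the 4 arrays were nearly alike. Its dimmest set, 1431182_at, read 8.27, 9.23, 8.78 and 8.61 and disagreed with the other 3, being highest in the array labelled Miz1 kd.

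Of the partners of HSP70, Dnajb1, the J-domain protein that delivers clients and starts ATP hydrolysis, read 10.79 in MYC-TA EGF, 10.07 in the array labelled Miz1 kd, 10.47 in Hmhi EGF and 10.95 in Hmhi starved. Its second set read 9.43, 9.10, 9.34 and 9.94. Both sets gave the order that Cryab gave, over a much smaller range. Hsph1, the exchange factor, read 10.76, 10.68, 10.46 and 10.39 on its brighter set and 9.17, 8.95, 8.80 and 9.06 on the other. The sets agreed that MYC-TA was highest and disagreed on which array was lowest.

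Hsp90aa1, the stress-responsive HSP90, read 12.99 in MYC-TA EGF, 12.48 in the array labelled Miz1 kd, 12.59 in Hmhi EGF and 13.29 in Hmhi starved. The next sets read 11.54, 10.51, 10.91 and 11.97, and 10.48, 9.49, 9.78 and 11.23. All 3 sets past the median gave the order of arrays seen for Cryab. The other 2 sets read 3.74 to 6.19 and were below the median in every array.

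A technical error was taken as the SD of a difference between probe sets of 1 gene, pooled over genes. It was 0.32 on the log2 scale for Hmhi EGF minus Hmhi starved, 0.22 for the array labelled Miz1 kd minus Hmhi EGF, 0.25 for MYC-TA EGF minus Hmhi EGF and 0.41 for MYC-TA EGF minus the array labelled Miz1 kd. Against starved Hmhi it was 0.42 for the array labelled Miz1 kd and 0.31 for MYC-TA. It holds none of the spread between cultures or RNA samples. On the brightest set, every step in the Cryab order exceeded the SD of its comparison, the smallest being 0.42 from Hmhi EGF down to the array labelled Miz1 kd. For Hspb8 the steps of 2.34 and 1.21 exceeded it, and the step of 0.32 between Hmhi starved and the array labelled Miz1 kd did not. For the step of 2.34, from Hmhi EGF to MYC-TA, the 3 Hspb8 sets had an SD of 1.24 and did not share a sign. That step also ends below the median, where background limits its size. No neighbouring arrays differed by more than the pooled SD for Hspb1, Hspa1b or Hspa8. Between arrays further apart, Hspa1b in MYC-TA was at -0.37 against Hmhi EGF and -0.46 against Hmhi starved. Hspa8 in MYC-TA was at -0.33 against Hmhi starved, and each of these exceeded the pooled SD. For Dnajb1 the steps of 0.32 and 0.39 below MYC-TA exceeded it, for Hsp90aa1 only the step of 0.40 from MYC-TA to Hmhi EGF did, and for Hsph1 only that of 0.22 from the array labelled Miz1 kd to Hmhi EGF, by less than 0.01.

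The first question, what differed with EGF after the 14 days, rests on Hmhi EGF against Hmhi starved. Cryab differed by -2.15 on the log2 scale on its brightest set, which is 4.44-fold lower, and by -2.63 on the second. Hspb8 was 2.89-fold lower at -1.53, with its other sets at -0.86 and -1.17. Hsp90aa1 differed by -0.70, though its next sets gave -1.06 and -1.45, and Dnajb1 by -0.48 and -0.60. The brightest sets of Hspa8, Hspa1b, Hsph1 and Hspb1 lay between -0.22 and 0.13. A gene entered if the brighter of the 2 arrays was at or above its median, which 8 of the 10 members did. Of these, 2 were at least 2-fold lower, against 4.96% of 11461 genes, and 0 at least 2-fold higher, against 7.98%. Their median difference was -0.35, beside 0.006 over all genes, and 6 of 8 were below 0, as were 49.4% of all genes. Of their 20 probe sets past the filter, 17 were below 0, but sets of 1 gene are not separate observations. The same share over all probe sets was not computed.

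The second question was what differed where Miz1 kd is labelled, relative to Hmhi EGF. Hspb8 was the 1 member at least 2-fold higher, by 1.21 or 2.31-fold, with its other sets at 0.78 and 0.82. This was 1 of 8 members, against 0.290% of 11394 genes, and Hspb8 ranked 11 from the highest of them. None of the 8 was at least 2-fold lower, against 2.50% of all genes. Cryab differed by -0.42 and -0.52 on its 2 sets, Dnajb1 by -0.39 and -0.25, and Hsph1 by 0.22 and 0.16. The median over the 8 members was -0.03, beside 0.018 over all genes.

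The third question was what differed where MYC-TA is labelled, with MYC-TA EGF set against Hmhi EGF. Hspb8 differed by -2.34 on its brightest set, 5.07-fold lower and 12 from the lowest of 11534 genes, but by -0.78 on the second and 0.11 on the remaining set. Since the brightest set read below the median in MYC-TA, background limits that fold and rank. Cryab differed by 0.81 and 0.82 on its 2 sets, 1.75-fold higher on the first, Hsp90aa1 by 0.40, 0.63 and 0.70, and Hspa1b by between -0.38 and -0.37 on its 3. In count, 1 of 8 members was at least 2-fold lower, against 1.65% of all genes, and 0 at least 2-fold higher, against 1.30%. The median over the 8 was 0.24, beside 0.045. The comparisons above share the Hmhi EGF array, so a deviation of that array would enter each.

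**Figure D2:**
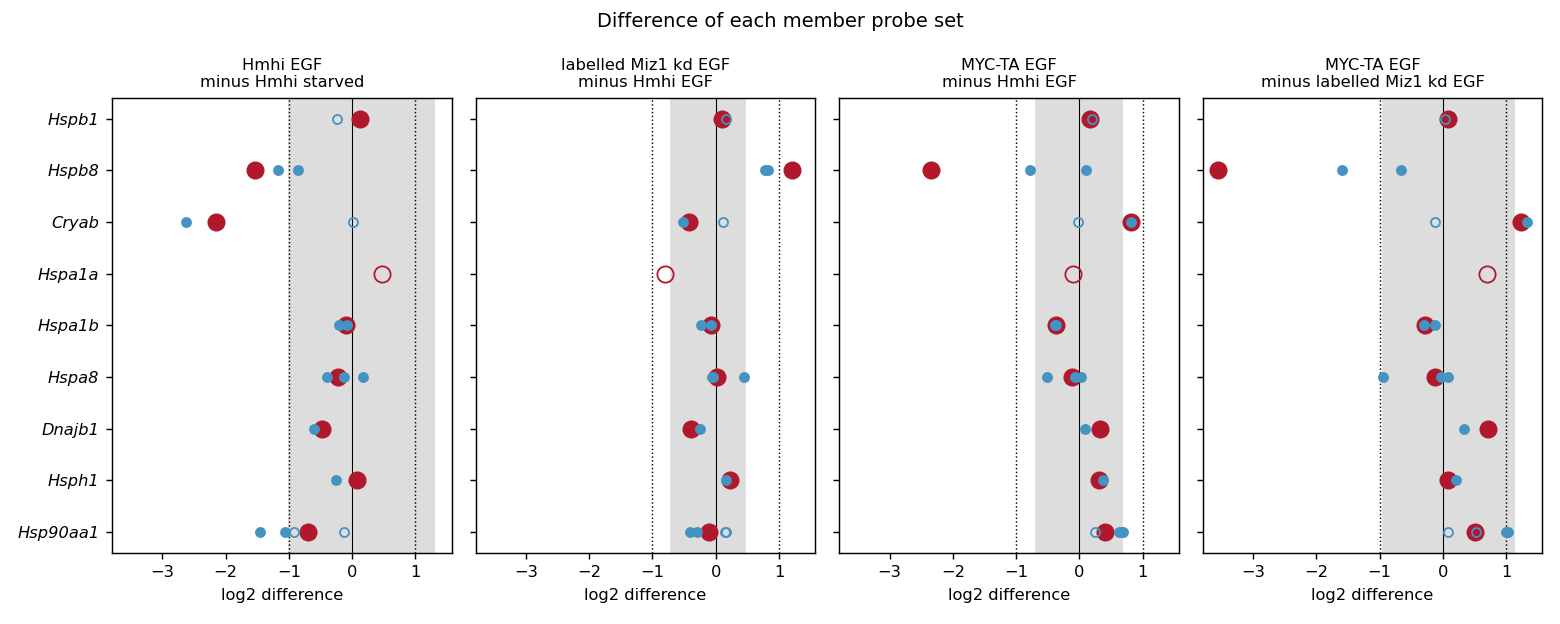
Log2 difference (horizontal axis) of each member probe set in 4 comparisons of 2 arrays, with genes in rows. Large red points are the brightest set of a gene, small blue points its other sets, open points sets below the array median of 6.66 in both arrays; the grey band holds the central 90% of all genes past the level filter and dotted lines mark 2-fold. On their brightest sets, Hspb8 and Cryab lie outside the band for Hmhi EGF minus Hmhi starved and for MYC-TA EGF minus Hmhi EGF, in the second of these on opposite sides. Some of their other sets lie inside the band, and some dimmer Hsp90aa1 sets lie outside it.

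Set directly against each other, MYC-TA EGF and the array labelled Miz1 kd showed the widest split between the pair of small heat shock proteins. Hspb8 differed by -3.55 on its brightest set, a size that background limits since that set was below the median in MYC-TA, and by -1.60 and -0.67 on its other sets. Cryab was 2.34-fold higher at 1.23, with 1.33 on the second set. These 2 genes made 1 member of 8 at least 2-fold lower, against 4.26% of 11613 genes, and 1 at least 2-fold higher, against 6.72%. Hsp90aa1 was higher by 0.50 on its brightest set and by 0.99 and 1.03 on the next, and Dnajb1 by 0.71 and 0.33.

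Against starved Hmhi, Hspb8 differed in the array labelled Miz1 kd by -0.32 on its brightest set and by -0.04 and -0.40 on the others. In MYC-TA it differed by -3.88 on the brightest set, whose level there was below the median, and by -1.64 and -1.06 on the others. Cryab differed by -2.57 in the array labelled Miz1 kd and by -1.34 in MYC-TA on its brightest set. Hsp90aa1 differed by -0.81 in the array labelled Miz1 kd on its brightest set, short of 2-fold, but by -1.454 and -1.745 on its next sets. On brightest sets, in the array labelled Miz1 kd 1 of 8 members was at least 2-fold lower, against 7.42% of 11455 genes, and in MYC-TA 2 of 8 were, against 4.91% of 11598. In neither was a member at least 2-fold higher, against 7.45% and 8.33% of all genes. Cryab thus read below its starved level in all 3 EGF arrays, and Hspb8 did so by 2-fold or more in Hmhi and MYC-TA.

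Hspb8 and Cryab, the members spanning at least 1 log2 unit, were set beside 11240 other genes by the distance between profiles over the 4 arrays, each centred on its own mean. The genes nearest to Cryab were Jade1, Prickle1 and Nebl at distances of 0.20, 0.26 and 0.28 log2 units; Nebl passed the array median in Hmhi starved alone, at 7.26. The nearest member was Hsp90aa1 at 1.33, which shared the order of arrays but not the range. The genes nearest to Hspb8 were Flrt3, Pdgfrb and Jakmip3 at 0.96, 1.02 and 1.13, and its nearest member was Hspa1b at 2.74. Pdgfrb is also on the fibroblast list, and read 6.91 in MYC-TA EGF, 11.16 in the array labelled Miz1 kd, 10.18 in Hmhi EGF and 10.45 in Hmhi starved. Like Hspb8 on its brightest set, it was lowest in MYC-TA by a wide margin. The Hspb8 profile compared here is that of this set alone, which read below the median in MYC-TA. On 1456434_x_at MYC-TA was not the lowest array for Hspb8. With 4 arrays and this many genes, some near profiles are found for most shapes, so these are descriptions.

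**Figure D3:**
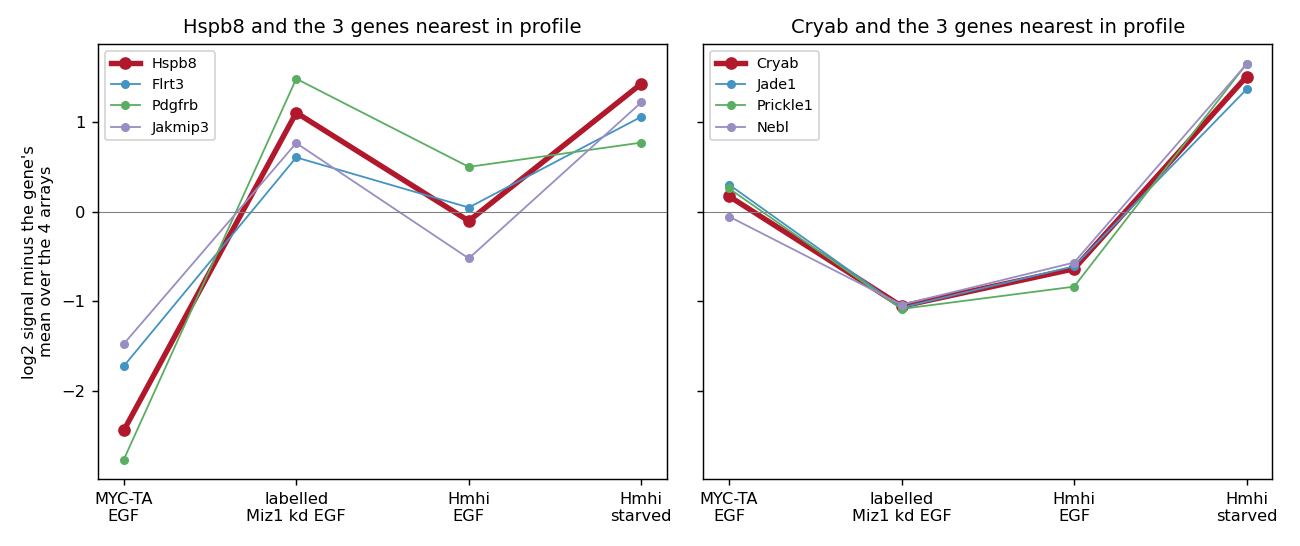
Log2 signal minus the gene's mean over the 4 arrays (vertical axis) in each array (horizontal axis) for Hspb8, Cryab and the 3 genes nearest to each in profile. Each gene is shown by its brightest probe set. Cryab and its neighbours are highest in Hmhi starved and lowest in the array labelled Miz1 kd. Hspb8 and its neighbours are lowest in MYC-TA.

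Other chaperones were counted by list, with several genes on more than 1 list. The lists differed in direction with EGF against starved Hmhi, where 49.4% of all genes were below 0 and 50.5% above. Of 11 other cytosolic J-domain proteins 10 were below 0, with a median of -0.34, and of 14 subunits of the TRiC chaperonin and prefoldin, which fold actin and tubulin, 13 were, with a median of -0.30. Pfdn5 was the 1 of these at least 2-fold lower, at -1.06, against 4.96% of all genes. Of 8 BAG proteins and other regulators of HSP70 6 were below 0, with a median of -0.33, and Bag3, the partner of Hspb8, read 10.29 in MYC-TA EGF, 10.40 in the array labelled Miz1 kd, 10.50 in Hmhi EGF and 10.82 in Hmhi starved. Bag3 was thus highest in Hmhi starved and lowest in MYC-TA, as Hspb8 was on 1417013_at and 1417014_at. It differed by -0.53 between MYC-TA and Hmhi starved. Hspb8 was higher in the array labelled Miz1 kd than in Hmhi EGF. Bag3 was at -0.10 there, within the pooled SD between probe sets of 0.22. In MYC-TA it was at -0.11 against the array labelled Miz1 kd and -0.21 against Hmhi EGF. Both lay within the pooled SDs between probe sets of 0.41 and 0.25 for those comparisons. Of 16 chaperones of the endoplasmic reticulum 15 were above 0, with a median of 0.78, and Serpinh1, Pdia6 and Pdia4 were at least 2-fold higher, at 1.37, 1.27 and 1.04, which is 3 of 16 against 7.98% of all genes. With the dimmest probe set of each gene the median of this list was 0.32 and that of the J-domain list -0.08. Among 10 mitochondrial chaperones, with a median of -0.04, the protease Lonp1 was higher by 1.14, the 1 of them past 2-fold. The 14 HSP90 co-chaperones were split, 7 above 0 and 7 below, with a median of 0.003. Of 6 genes of chaperone-assisted autophagy 4 were above 0, with a median of 0.34 and none 2-fold apart, and the 5 other HSP70 and HSP110 proteins that passed had a median of -0.54 with none 2-fold apart.

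Among other heat-inducible genes, 17 of 20 passed the level filter for that comparison, with 2 at least 2-fold lower, against 4.96% of all genes, and 2 higher, against 7.98%. Rgs2, a regulator of G-protein signalling, read 7.19 in MYC-TA EGF, 6.03 in the array labelled Miz1 kd, 6.32 in Hmhi EGF and 9.35 in Hmhi starved. Its levels of 6.03 and 6.32 lie below the median, where background limits the size of its differences, among them -3.03 for Hmhi EGF against starved. The stress factor Atf3 differed by -1.002, while the secreted chaperone Clu was at 1.67 and Serpinh1 is named above. In the regulator list, 3 of 7 genes passed and none was 2-fold apart, with Hsf2 at 7.56, 8.004, 7.79 and 7.57 in MYC-TA EGF, the array labelled Miz1 kd, Hmhi EGF and Hmhi starved. Hsf2, an HSF1 paralog named after its values were seen, thus stayed within 0.5 log2 units. Of 7 other small heat shock proteins, 3 passed and none was 2-fold apart.

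In the array labelled Miz1 kd against Hmhi EGF, 13 of 16 chaperones of the endoplasmic reticulum were below 0 with a median of -0.51 and none 2-fold lower, beside 47.5% of all genes below 0. Clu was the only gene on these chaperone lists at least 2-fold apart, at -1.89. Over all genes 2.50% were at least 2-fold lower and 0.290% higher. In MYC-TA EGF against Hmhi EGF all 14 TRiC and prefoldin genes were above 0, beside 55.1% of all genes. Their median was 0.36, and 0 were 2-fold higher, against 1.30% of all genes. Of the endoplasmic reticulum list 14 of 16 were below 0, with a median of -0.16, beside 44.7% of all genes below 0. The HSP90 co-chaperone Stip1, which links HSP70 to HSP90, was higher by 0.99 and Ahsa1, which speeds HSP90's ATP cycle, by 0.76.

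In MYC-TA EGF against the array labelled Miz1 kd, Stip1 and Ahsa1 were higher by 1.32 and 1.07, Pfdn4 by 1.55, Hspa14 by 1.09, Dnajb6 by 1.06, Clu by 1.70 and Rgs2 by 1.16. The phosphatase Ppp5c was at -1.21 and the actin crosslinker Flnc, a client of the Bag3 and Hspb8 complex, at -1.54. Flnc read 9.18 in MYC-TA EGF, 10.72 in the array labelled Miz1 kd, 10.01 in Hmhi EGF and 9.42 in Hmhi starved. Between the EGF arrays it stood in the order of Hspb8 on its brightest set, but not against Hmhi starved. Against starved Hmhi, Lonp1, Pdia6, Stip1, Hspa13, Fkbp5, Serpinh1 and Clu were higher in MYC-TA, by 1.02 to 1.48, and Hspb6 and Rgs2 lower at -1.002 and -2.16. In the array labelled Miz1 kd, Lonp1, Serpinh1 and Flnc were higher by 1.52, 1.40 and 1.30 against starved Hmhi, and Bag4, Dnajb4, Pfdn5, Dnajb6 and Rgs2 were at -1.22, -1.18, -1.16, -1.11 and -3.32.

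**Figure D4:**
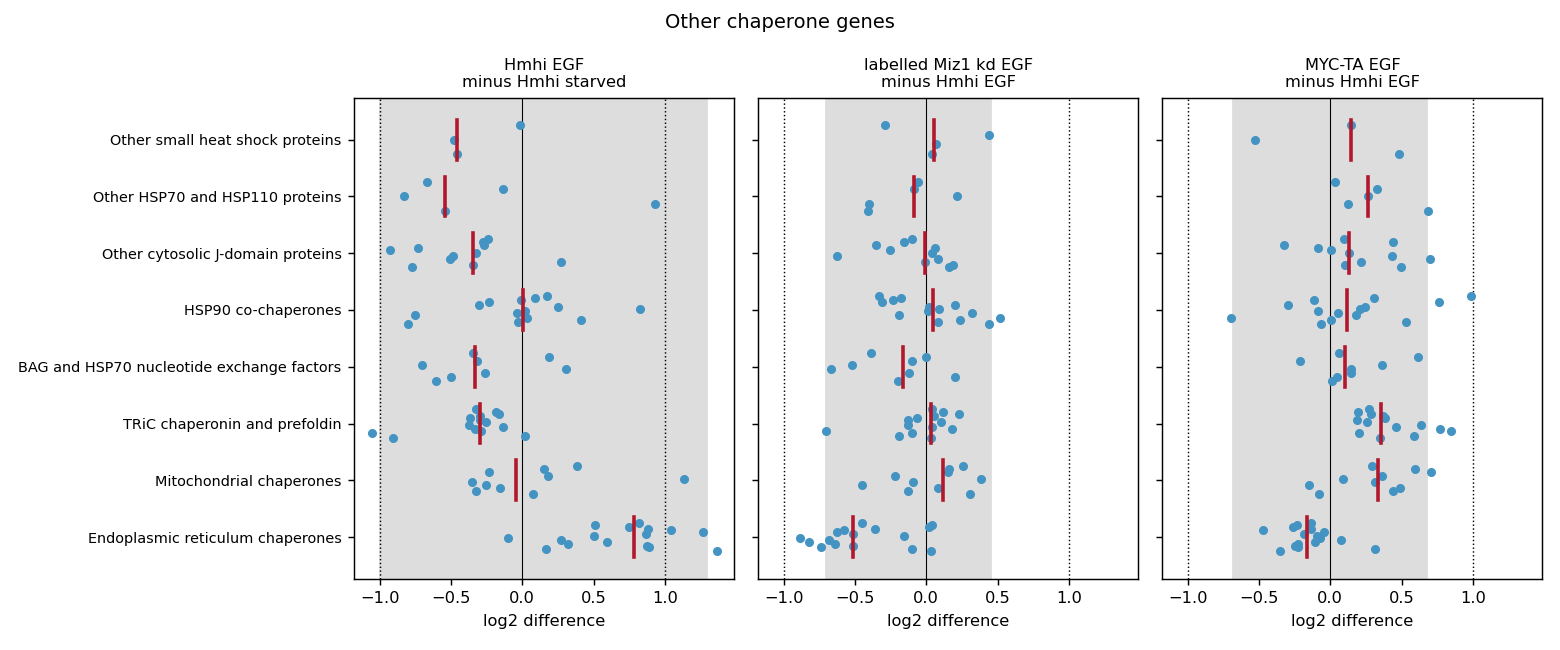
Log2 difference (horizontal axis) of each gene of 8 other chaperone lists past the level filter (points, 1 brightest probe set per gene) in 3 comparisons of 2 arrays. Red bars are list medians, the grey band holds the central 90% of all genes and dotted lines mark 2-fold. The endoplasmic reticulum list has a median of 0.78 for Hmhi EGF minus Hmhi starved, and all 14 TRiC and prefoldin genes are above 0 for MYC-TA EGF minus Hmhi EGF.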

How the data were processed

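Total RNA (100 ng per array) was converted to biotinylated cRNA with the IVT-Express kit, per the labels' protocols. The authors' deposited values are taken as log2 signals from their range; the log base, summarization and normalization are not given in the sources used here. Once sorted, the 4 columns differed by at most 0.004, so the authors had equalized the arrays before deposit and any global shift is hidden. The number of arrays, 1 per condition, limits precision.

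The platform annotation of 2016 gave 1 symbol for 34958 probe sets, several for 932 and none for 9160 non-control sets; identifiers matched the RefSeq table for 34754. A gene was represented by its probe set of highest mean, and entered a comparison if the brighter array reached its median of non-control sets. Members and lists were chosen with earlier results of these data known. All members were named, as were the list genes at least 2-fold apart (up to 4 per list and comparison), Hsf1, Bag3, Zbtb17 and the 3 genes nearest in profile. Hsf2, Myc and markers below these limits were named besides, after their values were seen. Steps were tested on simulated data. Alternatives changed the scaling (common median, quantile, loess of span 0.4), the filter, the probe sets or the fold. Python 3.11.15, pandas 2.3.3, numpy 2.4.6, statsmodels 0.14.6 and matplotlib 3.10.9 were used.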

Additional observations from a re-analysis of the deposited data

How the results depend on the processing

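No paired analysis was possible because there were no replicates, and leaving out a replicate could not be run. Under a common median, quantile normalization, loess and no level filter, no member count moved by more than 1.5 times. No member difference or median moved by more than the SD between probe sets. The deposited columns were already equalized, so the common median and quantile settings could change almost nothing. Removing the filter can change which members enter but not the difference of a member. Of these settings, only loess could thus move a member difference. With a level filter at the 75th percentile, the count of members 2-fold apart between MYC-TA EGF and Hmhi EGF was 0 in place of 1, since Hspb8 no longer passed. With the mean of all probe sets the count was 0 for the array labelled Miz1 kd against Hmhi EGF and 1 for MYC-TA EGF against that array. With only plain _at sets the median for MYC-TA EGF minus Hmhi EGF turned to -0.37 over 5 members and the count for MYC-TA EGF against Hmhi starved was 1, as Cryab has no such set above the median. Where other counts held without Cryab, Hsp90aa1 was past 2-fold in its place. Hsp90aa1 was at -1.055 for Hmhi EGF minus Hmhi starved and 1.029 for MYC-TA EGF minus the array labelled Miz1 kd. For the array labelled Miz1 kd minus Hmhi starved it was at -1.454. With the dimmest set, counts were 0 for Hmhi EGF and for the array labelled Miz1 kd against Hmhi starved, and 0 for both comparisons with Hmhi EGF. They were 1 for MYC-TA EGF against the array labelled Miz1 kd and against Hmhi starved, and the median for MYC-TA EGF minus Hmhi EGF was -0.37. Only 5 members passed with this setting. The dimmest sets of Cryab, Hspb1 and Hsp90aa1 lay below the median in every array, so these counts leave those genes out. At 1.5-fold, counts were 2 for MYC-TA EGF against Hmhi EGF (1 higher and 1 lower, against 7.30% and 7.03% of all genes) and 3, all lower, for the array labelled Miz1 kd against Hmhi starved (17.5% of all genes). Over all genes, 161 in place of 318 were 2-fold apart for the array labelled Miz1 kd against Hmhi EGF under the 75th percentile filter, which tested fewer genes. The cause of the differences between probe sets of a gene was not tested.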
